A study of Mus musculus with 4 samples.

Results

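Nerve terminals release transmitter when vesicles fuse with the plasma membrane. Of the genes that encode this machinery in most neurons, 37 were followed here in sorted retinal interneurons: SNARE proteins, synapsins, vesicle membrane proteins, synaptotagmins, Rab3 GTPases, active zone priming factors, complexins and the factors that take SNARE complexes apart. They were chosen by name, with earlier results of these data known. Each was represented by its brightest probe set among those that the platform annotation assigns to exactly 1 gene. All 37 had such a probe set, out of 18193 genes with one.

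The 4 samples came from mice of a mixed C57Bl6 x CD1 strain at postnatal day 6, the offspring of males with the MP transgene and females without it. Every sorted cell expressed CFP, the reporter of the transgene, so both groups carry it and neither is a sample of all amacrine or all bipolar cells. MP amacrine cells were CFP+VC1.1+, that is, they also bound VC1.1, an antibody that labels amacrine cells, and MP bipolar cells were CFP+VC1.1– after depletion of VC1.1-binding cells. Each group had 2 replicates of about 1000 cells from different litters, each on 1 Affymetrix array after 2 rounds of RNA amplification.

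In a release cycle, the vesicle SNARE synaptobrevin (Vamp) binds syntaxin and Snap25 on the plasma membrane, Munc13 proteins (Unc13) and RIM proteins (Rims) prime the vesicle, Rab3 on the vesicle binds RIM, and synaptotagmin triggers fusion on calcium entry. The ATPase Nsf and its adaptors, the SNAP proteins (Napa, Napb), then separate the SNAREs for reuse. Amacrine cells release mostly GABA or glycine at conventional synapses, whereas bipolar cells release glutamate at ribbon synapses, which hold vesicles on a plate-like scaffold. At postnatal day 6 the synaptic layer in which both cell types meet is still forming.

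The labelled cell types were matched by most of their markers. MP amacrine cells had more signal for 9 of 10 tested amacrine markers. The summed intensity of the 11 on the array was 6554 to 7346 on the amacrine arrays and 532 to 594 on the bipolar arrays. Tfap2b, Tfap2c, Neurod6, Snhg11 and Calb2 exceeded the array median on the amacrine arrays only. They were tested through those arrays alone, so their direction was fixed. Gad2 overlapped and was not called (means of 192 in amacrine and 161 in bipolar cells). Gad1 was too dim to be tested (49.8 and 9.26). For bipolar markers, 8 of 11 tested were higher in MP bipolar cells, with sums over 13 genes of 3554 to 4225 and 15489 to 16186. The other 3 tested were not called. Isl1 (means of 990 in amacrine and 629 in bipolar cells) and Prkca (484 and 406) were higher on both amacrine arrays. Pcp2 (141 and 288) was higher on both bipolar arrays. Fezf2 and Car8, among the 8 called, were tested through the bipolar arrays alone, so their direction was fixed too. Trpm1 and Bhlhe23, which mark ON bipolar cells, were too dim to be tested in either group. Rod and cone markers had sums over 13 genes of 10511 to 15906 on amacrine and 12023 to 13773 on bipolar arrays; 3 were too dim to be tested, and of the 10 tested 1 was called in each direction. Müller glia markers were higher in MP amacrine cells for 4 of 8 tested (sums over 10 genes of 4314 to 4640, against 2213 to 2777). Sums of ganglion cell markers were 1964 to 3955 in amacrine and 2891 to 3754 in bipolar cells (1 of 7 tested called, toward bipolar cells), those of horizontal cell markers 1772 to 3645 and 1797 to 1811 (1 of 5, toward amacrine cells), and those of microglia and vascular markers 1379 to 3976 and 566 to 1786 (2 of 8, toward amacrine cells). Slc1a3, Tfap2b and Pdgfrb, called toward amacrine cells in these lists, were also tested through the amacrine arrays alone. The ganglion cell neurofilament Nefm is named after its values were seen. It stood at 1631 on the array of MP amacrine replicate 1 and at 136 on that of replicate 2. The array of MP amacrine replicate 2 also had the largest difference between the 3-prime and 5-prime Gapdh controls, 3.16 on the log2 scale against 1.77 to 1.98 on the others. The part of these other cells and of RNA quality in the results below was not tested.

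Most of the release machinery was measured in both cell types, and a minority differed. A gene was tested when its probe set exceeded the array's median on at least 2 arrays, which 32 of the 37 did. By limma with Benjamini-Hochberg adjustment over 11583 genes, 3 were higher in MP amacrine cells (Rab3c, Syt7 and Synpr) and 5 in MP bipolar cells (Unc13c, Nsf, Syp, Sv2b and Napb) at an adjusted p under 0.05. Of all tested genes, 13.5% were called, 6.54% toward amacrine and 6.92% toward bipolar cells. The share among the release genes was 25%, a description, since the genes were not drawn at random and were chosen with earlier results of these data known. Their median log2 fold change (amacrine minus bipolar) was -0.11, against -0.03 over all tested genes, and the median absolute change was 0.37 against 0.26. The 2 arrays of one group lay on one side of both arrays of the other for 23 of the 32 (9 higher in amacrine, 14 in bipolar cells), and for 53.3% of all tested genes (24.2% and 29.1%). Without the array of MP bipolar replicate 2, calls over all genes went from 1559 to 917, and the 5 release genes higher in bipolar cells to 2, Unc13c and Sv2b.

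**Figure D1:**
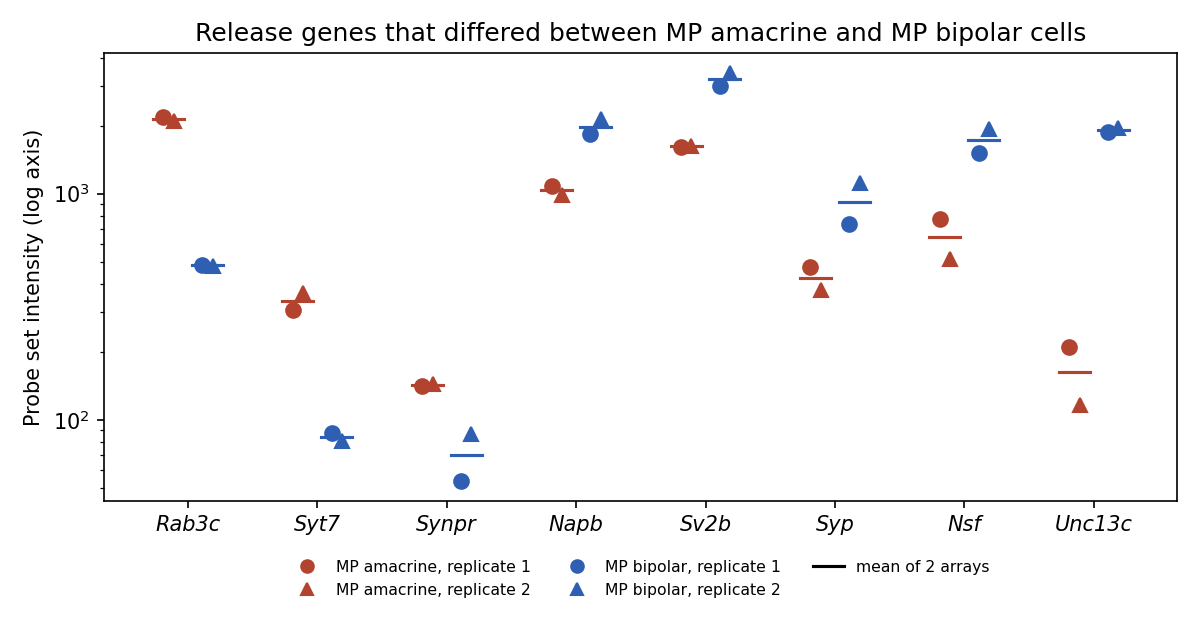
Intensity of the brightest probe set (vertical log axis) of the 8 release genes that passed the test, on each of the 4 arrays; red is MP amacrine, blue is MP bipolar, circles are replicate 1, triangles are replicate 2 and horizontal lines are the means of 2 arrays. Red points lie above blue ones for Rab3c, Syt7 and Synpr and below them for the other 5 genes, and the gap is widest for Unc13c, with 116 and 209.7 in red against 1872 and 1956 in blue.

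On their brightest probe sets, Rab3c and Unc13c differed most in each direction (Syt7 exceeded Rab3c with the mean of probe sets, 1.87 against 1.74, and with an offset of 64, 3.02 against 2.01), and the 250 bases before their annotated starts are shown for that reason. The sequences are from RefSeq (GRCm38.p6) and run 5′ to 3′ on the strand of the gene, the minus strand for both, at chr13:110280207-110280456 for Rab3c and chr9:73969038-73969287 for Unc13c. Only 1 start of each gene was available. Both windows lie inside the RefSeq spans of the genes, chr13:110054187-110280996 and chr9:73479422-74008155, so neither start is the upstream end of its gene. Capitals mark every CANNTG, the E-box that basic helix-loop-helix factors such as Neurod6 can bind, searched on both strands (it reads the same on each).
Rab3c: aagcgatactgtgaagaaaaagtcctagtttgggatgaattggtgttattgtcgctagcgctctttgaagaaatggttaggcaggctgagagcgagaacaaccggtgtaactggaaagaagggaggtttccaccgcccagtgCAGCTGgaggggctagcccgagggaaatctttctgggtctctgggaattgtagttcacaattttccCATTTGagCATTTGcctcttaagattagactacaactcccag
Unc13c: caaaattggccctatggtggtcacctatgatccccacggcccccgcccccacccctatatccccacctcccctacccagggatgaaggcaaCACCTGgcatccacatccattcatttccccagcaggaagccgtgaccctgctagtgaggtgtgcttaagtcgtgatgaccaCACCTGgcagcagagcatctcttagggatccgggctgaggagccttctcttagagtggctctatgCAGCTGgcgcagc
Each window held 3 such motifs, which began 108, 42 and 34 bases before the start used for Rab3c and 159, 78 and 13 bases before that used for Unc13c. The motif stood in 66.2% of all 32851 windows of 250 bases in the table. Of the 37 release genes 28 were matched in it, 7 of the 8 called genes among them, with 37 windows in all, of which 27 (73.0%) held the motif. TAATCC, which Otx and Crx factors can bind, stood on either strand in 6.25% of all windows, in 4 of the 37 windows of release genes (10.8%) and in neither window shown. These are matches of letters, not binding sites.

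Rab3 GTPases sit on vesicles and recruit them to release sites. Rab3c was the only one of 3 tested to differ, at 2185 and 2102 (amacrine arrays) and 485 and 481 (bipolar arrays). The raw amacrine mean was 4.44-fold the bipolar one, and the difference of log2(intensity + 16) was 2.11 (SE 0.17, adjusted p = 1.63e-04, limma). The replicates of each group almost coincided and the groups were far apart. Another 3 Rab3c probe sets passed the filter, and all were called in the same direction, with log2 fold changes from 1.54 to 2.75, when the probe sets of all genes were tested singly (9.46% of 23648 probe sets were called). Rab3a, the main Rab3 of brain synapses, was bright in both groups, at 2982 and 2225 against 2843 and 2944, and its arrays overlapped between the groups (-0.17, SE 0.16, adjusted p = 0.594, limma). Its interval of -0.53 to 0.19 excludes a difference of 2-fold. This holds for the brightest Rab3a probe set, which is of a possibly cross-matching kind. The other was much dimmer, at 285 and 165 against 227 and 257.5 (-0.14, SE 0.30). Rab3d (45.4 ± 16.5 in amacrine and 62.2 ± 9.51 in bipolar cells, SD, n = 2) overlapped too. Rab3b was at the bottom of the scale, at 6.86 and 2.40 against 1.42 and 1.21, and was not tested. The ratio of Rab3c to Rab3a within an array was 2.28 higher on the log2 scale (SE 0.18) in amacrine cells. In bulk samples such as these, fewer cells that express a gene and less of its RNA per cell cannot be told apart.

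Among synaptotagmins, Syt7 differed and the main calcium sensor of fast release did not. Syt7, a slow sensor with high calcium affinity, measured 306 and 362 in amacrine cells, against 87.1 and 80.2 in bipolar cells, a 3.99-fold difference of raw means and one of 1.81 in log2(intensity + 16) (SE 0.22, adjusted p = 0.00110, limma). All amacrine values exceeded all bipolar values by a wide margin. A second Syt7 probe set had 685 and 726 against 39.7 and 23.3, a log2 difference of 3.95. Another gave 1.78, and both were called when probe sets were tested singly. Both exceeded the array median on the amacrine arrays only, which fixed their direction but not their size. The size of the Syt7 difference thus depended on the probe set, and with the mean of all its probe sets it was 1.87, while an offset of 64 in place of 16 made the second probe set the brightest and gave 3.02. Syt1, the fast sensor, stood at 3305 and 3215 in amacrine cells and at 2450 and 3077 in bipolar cells (0.25, SE 0.14, adjusted p = 0.323, limma). Its groups did not overlap, but their means differed by less than the bipolar replicates did, and the interval ran from -0.07 to 0.56. All 4 Syt1 probe sets above the filter had the same sign, from 0.06 to 0.50.

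The other synaptotagmins did not pass. Syt4, which does not bind calcium in the usual way, had 1867 and 1399 against 1621 and 1528, and Syt11, a related form, had 972 and 1251 against 1437 and 1418. Syt11 lay lower on both amacrine arrays (-0.37, adjusted p = 0.277, limma), while its other probe sets differed in sign, from -0.53 to 0.01. Syt13 varied between the amacrine replicates, at 731 and 422, and its bipolar arrays, at 423 and 521, lay between them. Syt5 was nearly equal (96.2 ± 13.1 and 96.9 ± 12.8, SD, n = 2) and Syt9 was low in both (43.2 ± 8.78 and 60.8 ± 0.141). Syt3 and Syt6 were too dim to be tested, with no array above its median.

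Vesicle membrane proteins included both directions within one protein family. Synaptophysin (Syp), an abundant vesicle protein of many synapses, measured 474 and 377 in amacrine cells, against 731 and 1115 in bipolar cells (log2 fold change -1.07, SE 0.26, adjusted p = 0.0331, limma). Its close relative synaptoporin (Synpr) had 141 and 145 against 53.9 and 86.5 (0.91, SE 0.24, adjusted p = 0.0473). Both groups were separated for either gene, but the bipolar replicates differed by more than the amacrine ones. The change of the Synpr to Syp ratio within arrays was 1.97 on the log2 scale (SE 0.18). Neither call was stable. Synpr passed in 3 of 16 alternatives, with adjusted p between 0.0157 and 0.347 by limma, and was lost when any single array was left out, where its log2 fold change ran from 0.63 (without MP bipolar replicate 1) to 1.18 (without MP bipolar replicate 2). For Syp, 11 of 17 alternatives passed (adjusted p between 0.00652 and 0.256), and it was lost without MP amacrine replicate 2 (-0.91) and without MP bipolar replicate 2 (-0.77).

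The synaptic vesicle glycoproteins of the SV2 family, transporter-like proteins of the vesicle membrane, were higher in MP bipolar cells where they passed. Sv2b measured 1611 and 1630.1 in amacrine cells, against 2998 and 3405 in bipolar cells, 1.98-fold higher by raw means (log2 fold change of intensity + 16 of -0.97, SE 0.13, adjusted p = 0.00204, limma). The amacrine replicates were nearly equal, and both lay far below the bipolar ones. The adjusted p of Sv2b passed in all 17 alternatives, but its difference fell short of 2-fold on the log2(intensity + 16) scale, and its second probe set gave -1.26, which was not called when probe sets were tested singly. Sv2a lay the same way at 344 and 313 against 496 and 505 without passing (-0.59, adjusted p = 0.130), and the ratio of Sv2b to Sv2a changed by -0.39 (SE 0.11). Sv2c was too dim to be tested (38.9 ± 1.80 and 40.7 ± 24.9, SD, n = 2). Synaptogyrins are related to synaptophysin. Syngr1 had 696 and 469 against 896 and 862 (-0.61, adjusted p = 0.160, limma; -0.88 and 0.0365 without MP amacrine replicate 1, and up to 0.668 over the alternatives), and its second probe set had the opposite sign, at 0.27. Syngr3 had 82.6 and 65.7 against 56.8 and 50.2 (0.37, adjusted p = 0.344).

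**Figure D2:**
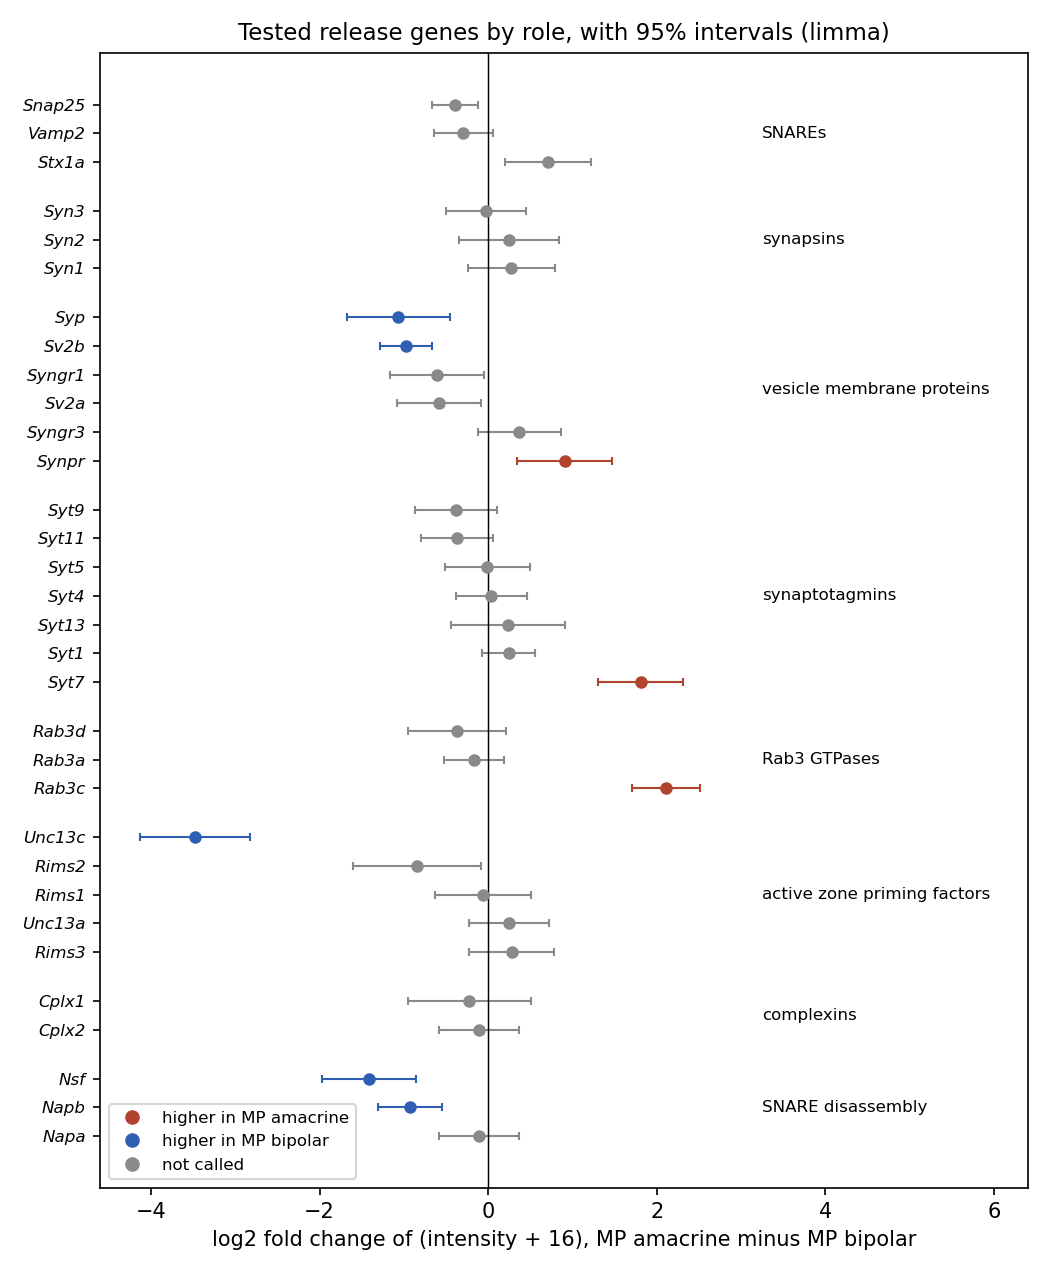
Log2 fold change of (intensity + 16), MP amacrine minus MP bipolar, for the 32 tested release genes, ordered by role, with 95% confidence intervals from limma (n = 2 per group); red and blue mark genes that passed at an adjusted p under 0.05. Rab3c (2.11) and Unc13c (-3.48) stand farthest from 0 on either side, and the SNAREs, synapsins and complexins hold no gene that passed.

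Among the brightest probe sets of tested release genes, the largest difference was that of a priming factor. Unc13c (Munc13-3), a Munc13 form best known from cerebellar granule cells, measured 209.7 and 116 in amacrine cells, against 1872 and 1956 in bipolar cells. The raw bipolar mean was 11.7-fold the amacrine one, and the difference of log2(intensity + 16) was -3.48 (SE 0.28, adjusted p = 1.51e-04, limma). The amacrine replicates differed from each other by less than a factor of 2, far less than the gap between groups. A second probe set had 9.73 and 7.27 against 107 and 131 (-2.46, called when tested singly). It exceeded the array median on the bipolar arrays only, which fixed its direction. Unc13c passed in all 17 alternatives, with log2 fold changes from -3.87 to -2.004, the last with the mean of its 3 probe sets. Unc13a (Munc13-1), the main form at most glutamate synapses, had 71.1 and 71.6 against 63.7 and 51.8 (0.25, adjusted p = 0.540), and the Unc13c to Unc13a ratio changed by -3.73 (SE 0.42).

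RIM proteins, which link vesicles, Munc13 and calcium channels, did not pass on their brightest probe sets. Rims2 measured 337 and 709.6 in amacrine cells, against 905 and 881 in bipolar cells, both amacrine values lying below (-0.85, SE 0.33, adjusted p = 0.154, limma). The spread between the amacrine replicates was wide, and without MP amacrine replicate 2 the log2 fold change was -1.37 (adjusted p = 0.00943, against up to 0.365 over the alternatives). Another Rims2 probe set, with 289 and 261 against 978 and 859, was called toward bipolar cells when tested singly (-1.68, adjusted p = 0.00463), and of the remaining probe sets above the filter one gave -0.68 and one gave 0.10. Rims1 had 211 and 299 against 261 and 265 and overlapped (-0.06), while its second probe set gave 0.76. Rims3, a short form without the Rab3-binding part, had 98.5 and 83.2 against 63.4 and 80.9 (0.28, adjusted p = 0.504).

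The core SNAREs were measured in both cell types, and none of the 3 tested passed (limma), although Snap25 and Stx1a had an unadjusted p under 0.05. Snap25 measured 2233 and 2194 in amacrine cells, against 2867 and 2950 in bipolar cells, a small difference with close replicates (-0.39, SE 0.12, adjusted p = 0.0699, limma). Its second probe set gave -0.62 (SE 0.20). Vamp2, the main synaptobrevin of the forebrain, had 1435 and 1379 against 1677 and 1782 (-0.29, adjusted p = 0.284). For both genes the 2 bipolar values were the higher ones, and the intervals, -0.66 to -0.12 and -0.64 to 0.05, exclude a difference of 2-fold. This holds for the brightest probe sets only, since the second one of Snap25 had a larger difference and SE. Stx1a, a syntaxin of conventional synapses that is used as an amacrine marker, was higher on both amacrine arrays, at 142 and 180.4 against 98.2 and 85.5 (0.71, SE 0.22, adjusted p = 0.0803). It passed without MP amacrine replicate 1 (0.87, adjusted p = 0.0483) and reached an adjusted p of 0.416 in another alternative. The Stx1a probe set used was of a possibly cross-matching kind. The only other one, below the filter, was nearly equal, at 42.7 and 37.1 against 33.9 and 43.6 (0.03). With the mean of the Stx1a probe sets the log2 fold change was 0.37 (adjusted p = 0.185, limma). Vamp1 was too dim to be tested, with 30.3 and 27.7 against 28.4 and 45.4.

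The clamp and activator proteins of the SNARE complex, the complexins, and the synapsins, which tether vesicles to actin, did not differ detectably either. Cplx1 measured 449 and 262 in amacrine cells, against 490.0 and 333 in bipolar cells, and the replicates differed more than the groups. Its 2 other probe sets had the opposite sign, 0.49 and 0.17. Cplx2 was nearly equal on its brightest probe set, 522 and 534 against 568 and 576 (-0.11, SE 0.20, adjusted p = 0.811, limma). A second one, with 248 and 189 against 627 and 461, was called toward bipolar cells when tested singly (-1.25, adjusted p = 0.0325), so the size of the Cplx2 difference and its call rested on the probe set chosen, not its direction. Syn1 (0.27), Syn2 (0.25) and Syn3 (-0.03) had adjusted p of 0.533, 0.633 and 0.955. Syn3, the form known for its early expression in development, had 631 and 619 against 683 and 597 (SE of the difference 0.20), and its sign turned after quantile (0.0503) and loess (0.0440) scaling.

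Both Nsf and one of its adaptors were higher in MP bipolar cells. Nsf measured 776 and 515 in amacrine cells, against 1515 and 1937 in bipolar cells, 2.67-fold higher by raw means (log2 fold change of intensity + 16 of -1.41, SE 0.24, adjusted p = 0.00636, limma). Replicates of either group differed, but every bipolar value was well above every amacrine value. Its only other probe set above the filter gave -0.39, and with the mean of all 4 Nsf probe sets the difference was -0.52 and did not pass (adjusted p = 0.102). Napb (beta-SNAP), the brain-enriched adaptor, had 1081 and 985 against 1829 and 2134 (-0.93, SE 0.17, adjusted p = 0.00783). Of 5 Napb probe sets above the filter all were negative, from -1.03 to -0.03. That with 37.8 and 44.3 against 66.8 and 123 exceeded the array median on the bipolar arrays only, which fixed its direction. Napa (alpha-SNAP), the form found in most tissues, had 559 and 521 against 595 and 575 (-0.11, adjusted p = 0.811), and the Napb to Napa ratio changed by -0.81 (SE 0.14). Without MP bipolar replicate 2 neither Nsf (-1.24, adjusted p = 0.0528) nor Napb (-0.82, adjusted p = 0.0947) passed, over alternatives that ranged from 1.20e-04 to 0.102 for Nsf and from 0.00205 to 0.0947 for Napb.

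Within-array ratios were computed for 6 pairs of paralogs, chosen after the values were seen to hold a called gene each: the 5 given above and that of Syt7 to Syt1, which was 1.56 higher in amacrine cells on the log2 scale (SE 0.25). An exact two-sided permutation test of 2 against 2 arrays gave p = 0.333 for each, the smallest it allows, so they describe these arrays only. Of the 24 tested members that were not called, 20 had a 95% interval inside -1 to 1 on the log2 scale with the offset added. The other 4 were Stx1a, Syngr1, Sv2a and Rims2, and these and Snap25 had an unadjusted limma p under 0.05. The offset understates differences of dim genes. A 2-fold difference of intensity was thus not excluded for those such as Rab3d (lower bound -0.95) and Syt9 (-0.87). The intervals hold for the brightest probe sets only. Cplx2 was among the 20, yet its second probe set gave -1.25 and was called when tested singly.

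**Figure D3:**
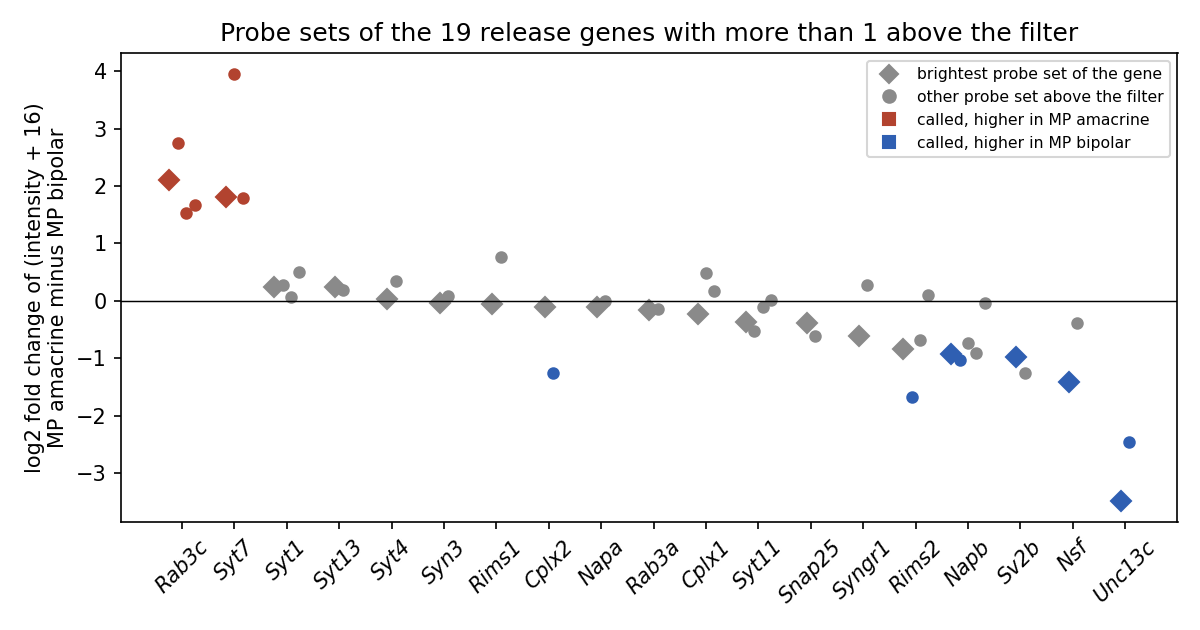
Log2 fold change of (intensity + 16), MP amacrine minus MP bipolar, of every probe set above the filter for the 19 release genes with more than 1; diamonds are the brightest probe set, circles the others, and red and blue mark those called when all probe sets were tested singly by limma. All probe sets of Rab3c and Syt7 lie above 0 and those of Unc13c, Nsf, Sv2b and Napb below it, while genes such as Cplx1 and Rims1 have probe sets on both sides of 0. Some of those of Rab3c, Syt7, Unc13c and Napb passed the filter only through the group where they are high.

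Probe sets of one gene were of one sign for 12 of the 19 release genes with more than 1 above the filter. The exceptions, Cplx1, Napa, Rims1, Rims2, Syn3, Syngr1 and Syt11, include none of the 8 called genes. Some probe sets of Rab3c, Syt7, Unc13c and Napb passed the filter only through the group where they are high, which fixed their sign. The release genes had 64 probe sets above the filter in all. Of these 7 were called toward amacrine and 8 toward bipolar cells, where 9.46% of all 23648 probe sets were called. The 7 belong to Rab3c and Syt7 alone, and the 8 to Cplx2, Napb, Nsf, Rims2, Sv2b and Unc13c, so they are not separate genes. Syp and Synpr had only 1 above the filter each, and neither was called when tested singly (adjusted p = 0.0613 and 0.0801, limma).

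Further genes of the release pathway, 143 on the array and 121 tested, were taken from lists made by role, also with earlier results of these data known. The test called 8 of them toward amacrine and 16 toward bipolar cells, 19.8% of those tested against 13.5% of all tested genes, with a median log2 fold change of -0.13. Among 17 active zone scaffolds, 4 passed toward bipolar and 2 toward amacrine cells (35.3% called). They included the Munc13 form Unc13b (-2.32, SE 0.18), known from photoreceptor ribbon synapses, the liprin Ppfia3 (-1.42, SE 0.24) and the scaffold piccolo (Pclo; -1.30, SE 0.18), against the adaptor kinase Cask (0.97, SE 0.22). Unc13b measured 539.6 and 560.0 in amacrine cells, against 2547 and 3093 in bipolar cells, so the genes Unc13b and Unc13c were both higher in bipolar cells. Among 15 SNARE regulators, 4 were higher in bipolar and none in amacrine cells (26.7% called, limma; 5 and 1 at an unadjusted p under 0.05). Tomosyn (Stxbp5), an inhibitor of SNARE assembly, led with -1.88 (SE 0.20), followed by the priming factors Cadps (-1.74, SE 0.13) and Cadps2 (-1.29, SE 0.23) and by Lin7a (-0.79, SE 0.22).

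Of the calcium sensors and Rab3 partners, 3 of 19 tested (15.8%, where 13.5% of all tested genes were called, with 6.54% toward amacrine cells) passed toward amacrine cells and none toward bipolar cells (limma; 3 and 2 at an unadjusted p under 0.05). The Rab3 effector rabphilin (Rph3a) measured 363 and 628 in amacrine cells, against 87.7 and 80.9 in bipolar cells (2.30, SE 0.29, adjusted p = 0.00133, limma), so a Rab3 and a Rab3 effector were both higher there. Syt16 (1.33, SE 0.20) and the calcium sensor Doc2a (0.83, SE 0.20) were the others. Doc2a, with 78.8 and 67.8 against 32.4 and 36.1, exceeded the array median on the amacrine arrays only, which fixed its direction. Among 19 further SNAREs, Stx4a (1.16, SE 0.24) passed toward amacrine cells and none toward bipolar cells (limma, 2 and 3 at an unadjusted p under 0.05). Stx4a, too, exceeded the array median on the amacrine arrays only, at 127 and 84.6 against 41.2 and 34.4. Stx3, the syntaxin of ribbon synapses, was bright in both groups, at 2052 in amacrine and 2549 in bipolar cells on average, and was not called; it is named after its values were seen.

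Vesicle recycling genes passed in both directions. Of 26 tested endocytosis genes, 8 passed toward bipolar and 2 toward amacrine cells, where 6.92% and 6.54% of all tested genes did. The clathrin uncoating factor auxilin (Dnajc6) had -1.70 (SE 0.23), endophilin A1 (Sh3gl2) -0.98 (SE 0.26) and the clathrin adaptor Eps15 -0.97 (SE 0.17), against the dynamin Dnm3 with 1.23 (SE 0.20). None of 17 tested subunits of the vesicle proton pump passed (limma), with log2 fold changes from -0.75 to 0.39 and 2 at an unadjusted p under 0.05. None of 8 other vesicle membrane genes did either, from -0.54 to 0.47 and with 2 at an unadjusted limma p under 0.05.

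**Figure D4:**
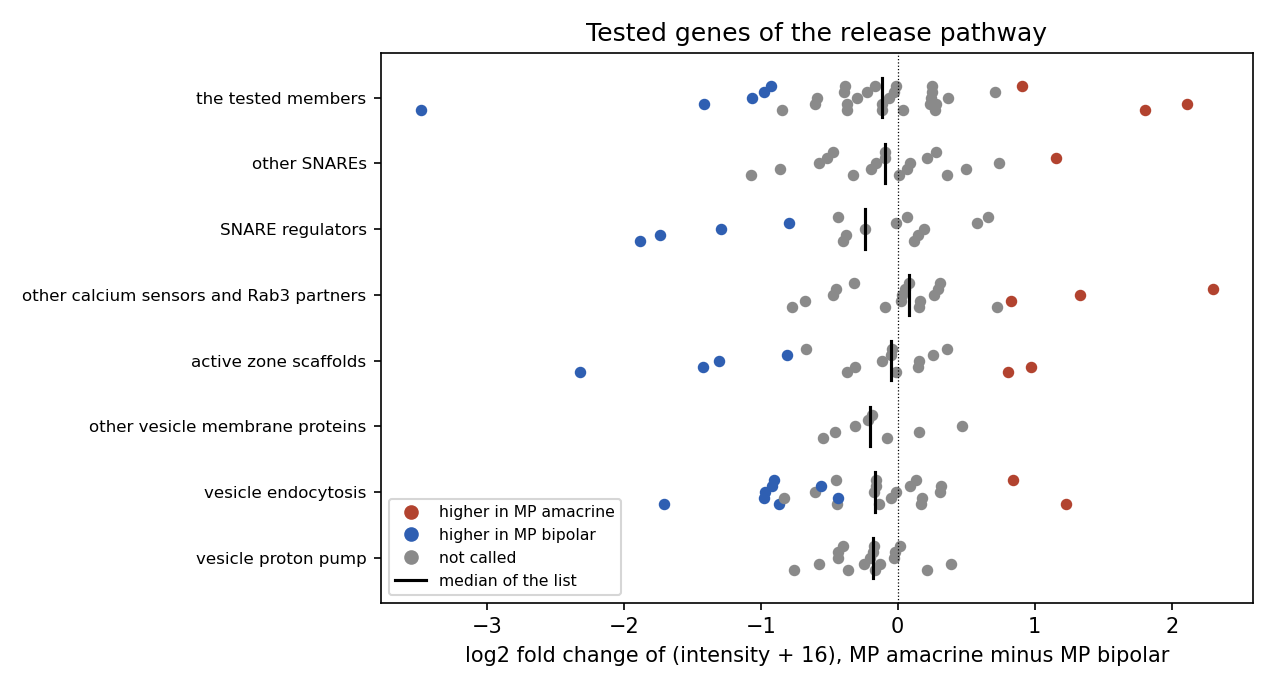
Log2 fold change of (intensity + 16), MP amacrine minus MP bipolar, of the 32 tested members in the top row and of further release genes by list below; each point is a gene, red and blue passed limma at an adjusted p under 0.05, and black bars are medians. Blue points stand at the left of the rows of active zone scaffolds (Unc13b at -2.32), SNARE regulators and endocytosis genes, red points at the right of the calcium sensors and Rab3 partners (Rph3a at 2.30), and the proton pump row has neither.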

How the data were processed

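The authors' deposited table holds 1 linear intensity per probe set and array for 45101 probe sets; their summarisation and scaling are not given in the sources used here. RNA came from PicoPure extraction and MessageAmp amplification, per the labels' protocols. Values were used as log2(intensity + 16), which understates differences of dim genes. The 64 control probe sets were left out, and genes were named only from the 34945 probe sets annotated to 1 gene. Tests covered the 11583 genes whose brightest probe set exceeded the median of an array on 2 or more of the 4 arrays. Groups, taken from sample titles, were compared with limma 3.58.1 in R 4.3.3 (intensity trend, two-sided, Benjamini-Hochberg, threshold 0.05) with 2 residual degrees of freedom. The method was tested on simulated data. The number of arrays limits the precision. All 37 members were named, with each array's value for those called, differing by 2-fold or brightest in their family, and with up to 4 called genes of each further list. The members and lists were chosen with earlier results of these data known. The ratios of paralogs and the singly tested probe sets were added after seeing the data. Values of dim members are printed but were not tested. Alternatives covered scaling, pseudocount, filter, probe set choice, variance moderation, array weights, the replicate block and each array left out.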

Additional observations from a re-analysis of the deposited data

How the results depend on the processing

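No called member changed sign under any alternative run, and the adjusted p of Unc13c, Rab3c, Syt7 and Sv2b passed in all of them, although Sv2b (-0.97) missed a further demand for a 2-fold difference; of the comparisons of the 8 called members with an alternative, 111 stayed past the threshold and 24 fell short. Members higher in MP bipolar cells numbered 3 without the filter, 2 with the mean of all probe sets, 3 when a 2-fold difference was also asked, and 6 without possibly cross-matching probe sets (Cplx2 was gained, -1.25, limma adjusted p = 0.0178); with each array left out they numbered 2 to 6, and those higher in amacrine cells 2 to 3. Over all genes 1559 were called, 785 without the filter, and 917 to 1939 with an array left out. Members that were not called turned sign as follows: Syn3 to 0.0503 (quantile), 0.0440 (loess), 0.0210 (mean of probe sets) and 0.0872 (without possibly cross-matching probe sets), and Rims1 to 0.35 and Cplx1 to 0.15 with the mean of probe sets. With an array left out, the log2 fold change of a member that turned sign ran from -0.0051 to 0.51 for Syn2, -0.12 to 0.0657 for Syn3, -0.17 to 0.24 for Syt4, -0.13 to 0.11 for Syt5, -0.15 to 0.62 for Syt13, -0.38 to 0.0434 for Rab3a, -0.30 to 0.18 for Rims1 and -0.59 to 0.15 for Cplx1. The cause was not tested. Equal replicate numbers are not said to share a litter, and the differences between replicates 1 and 2 correlated by -0.04 between the groups over tested genes, so the numbers were not taken as pairs. With the replicate number as a block, 3 members passed toward amacrine and 6 toward bipolar cells (Rims2 was added), of 1932 genes called. A lone array of a group was taken to have the spread of the other group.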
